A study of Mus musculus with 10 samples.

Results

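Of the 85680 consensus regions of open chromatin found in 10 ATAC-seq libraries of mouse colon organoids, 4678 (5.46%) were called in every one of the 5 WENR libraries but not in any of the 5 d4 ENR libraries, and these 4678 regions are described here. Consensus regions were made by joining all peaks of the 10 lists that shared at least 1 bp, and a region counted as called in a library where that library had a peak in it. The members were thus chosen by the presence and absence of peaks in both media, so the difference between the media is what selected them and is no finding about them. Sequence and position had no part in the choice. The rule did not separate the genotypes, but it asked for a peak in every WT and every AHR KO WENR library. Regions under the caller's threshold in 1 genotype were thereby left out. Strength in WENR did in part, since the caller's threshold had to be passed in each of the WENR lists, so the values of strength below describe the members and are no finding.

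The organoids were grown in Matrigel from crypts of the whole colon of *Ahr* fl/fl mice carrying Cre under the *Villin* promoter, which is active in the intestinal epithelium (AHR KO), or of their WT littermates, all on a C57BL/6 background. The age of the mice was not given in the sources used here. WENR organoids were kept in ENR medium (EGF, Noggin and R-spondin) with Wnt3a, together with nicotinamide, the p38 inhibitor SB202190 and the ALK5 inhibitor A83-01, and d4 ENR organoids were moved from WENR into ENR for 4 days, so the media differed in all of these and not in Wnt3a alone. WENR was represented by 2 WT and 3 AHR KO libraries and d4 ENR by 3 WT and 2 AHR KO libraries, each made from 50000 sorted live cells. ATAC-seq marks open chromatin by the insertions of a transposase, and the measurement was made on bulk cells, in which fewer cells with an open region and less opening per cell cannot be told apart.

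Wnt, EGF and R-spondin keep colonic epithelial cells in a dividing, stem-like state, and withdrawal of Wnt lets the cells mature into absorptive and secretory cells. EGF and R-spondin were present in both media here. Much of the chromatin that opens or closes between such states lies in enhancers away from promoters. AP-1, a dimer of FOS and JUN proteins, and the TEAD factors, which recruit the Hippo pathway co-activator YAP, bind enhancers of growing and wounded epithelium and are often found at the same sites, whereas HNF4 and CDX2 bind enhancers of the mature intestine.

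The sequences below are examples from the stronger members, chosen for their strings, and are not typical of the members. They are the 4 members of highest rank by WENR peak significance, among those eligible for printing, whose central 300 bp held both an AP-1 and a TEAD string. Each is the central 300 bp of the member on the plus strand of GRCm38, 5′ to 3′, and capitals mark the AP-1 strings (TGACTCA or TGAGTCA) and the TEAD strings (ACATTCC or GCATTCC) on either strand. In the central 300 bp, 3.78% of all members held both kinds of string and 63.2% held neither. A match of letters is a description and does not show that a factor was bound.

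Lrrc66 intergenic chr5:73583639-73583938: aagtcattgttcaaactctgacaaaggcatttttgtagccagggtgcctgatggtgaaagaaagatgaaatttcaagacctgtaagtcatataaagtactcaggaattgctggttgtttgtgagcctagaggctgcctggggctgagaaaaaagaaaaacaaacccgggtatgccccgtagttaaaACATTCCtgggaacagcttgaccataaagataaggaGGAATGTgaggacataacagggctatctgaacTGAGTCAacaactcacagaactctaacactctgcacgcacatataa

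Kif18a intergenic chr2:109420169-109420468: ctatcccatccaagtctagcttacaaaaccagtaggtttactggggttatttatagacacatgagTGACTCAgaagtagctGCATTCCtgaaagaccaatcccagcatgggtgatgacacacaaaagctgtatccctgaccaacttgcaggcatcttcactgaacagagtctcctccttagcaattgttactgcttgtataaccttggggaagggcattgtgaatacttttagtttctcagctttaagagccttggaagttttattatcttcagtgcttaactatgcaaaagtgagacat

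Tex10 intergenic chr4:48489187-48489486: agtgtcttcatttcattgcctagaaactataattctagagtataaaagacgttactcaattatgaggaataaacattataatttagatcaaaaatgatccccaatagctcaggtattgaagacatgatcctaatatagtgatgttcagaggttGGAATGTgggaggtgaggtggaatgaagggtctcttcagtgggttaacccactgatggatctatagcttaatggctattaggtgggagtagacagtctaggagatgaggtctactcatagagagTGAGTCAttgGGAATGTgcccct

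Ext1 intron chr15:53112766-53113065: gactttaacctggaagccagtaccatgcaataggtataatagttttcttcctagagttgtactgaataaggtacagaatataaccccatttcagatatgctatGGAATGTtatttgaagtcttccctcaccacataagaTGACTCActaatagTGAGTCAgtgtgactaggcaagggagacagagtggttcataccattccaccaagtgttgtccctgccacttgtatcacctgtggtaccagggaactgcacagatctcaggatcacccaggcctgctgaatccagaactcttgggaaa

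The first lies 46523 bp from the nearest protein-coding transcription start, that of *Lrrc66*, and holds 2 TEAD strings and 1 AP-1 string. The next lies 128296 bp from the start of *Kif18a*, a kinesin of the mitotic spindle, and its AP-1 and TEAD strings begin 16 bp apart. In the one 15878 bp from the start of *Tex10*, an AP-1 string and a TEAD string begin 10 bp apart. The last lies in an intron of *Ext1*, which encodes an enzyme of heparan sulphate synthesis, and holds 2 AP-1 strings and 1 TEAD string. No annotated exon overlapped any of these windows.

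The libraries of the media differed in more than these regions. WENR libraries held 41686181 to 49126792 fragments and d4 ENR libraries 30354729 to 36307860, and the peaks held 63.0 to 68.6% of the coverage in WENR but 14.1 to 44.2% in d4 ENR. The promoters of all 8 epithelial markers (*Epcam*, *Cdh1*, *Vil1*, *Krt8*, *Krt18*, *Krt19*, *Cldn3* and *Cldn7*) held a peak in all 10 libraries, with a summed peak coverage, per 1000000 fragments of the library, of 61.0 to 67.8 in WENR and 15.6 to 35 in d4 ENR. The immune markers *Ptprc*, *Cd3e*, *Itgam* and *Csf1r* had no promoter peak in any library. The targeted gene was checked too. The start of the longest *Ahr* model was open in all 10 libraries, so it does not tell the genotypes apart, and a region in an *Ahr* intron was called in all 5 AHR KO and none of the 5 WT libraries. The part of the lower enrichment and depth of d4 ENR in the absence of peaks there was not tested. Absence of a call is a failure to reach the caller's threshold and does not show closed chromatin.

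The members were weak peaks in WENR. The strength of a region in a library is given here as the percentile of its strongest peak by −log10 q within that library's own list, from 0 for the weakest to 100 for the strongest. The median percentile of the members was 21.6 and 26.6 in the 2 WT WENR libraries and 26.4, 27.6 and 32.4 in the 3 AHR KO WENR libraries. By comparison, the medians of the 28205 regions called in all 10 libraries were 76.6 to 77.7 in the same lists. The members thus lay in the lower part of every WENR list, with AHR KO replicate 3 highest and WT replicate 1 lowest.

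Their fold enrichment over the local background was modest. It had a median of 3.10 and 3.37 for WT and of 3.46, 3.37 and 3.47 for AHR KO. The coverage of their peaks, scaled to 1000000 fragments per library, had a median of 0.521 and 0.578 in WT and 0.575, 0.601 and 0.640 in AHR KO, against 1.31 to 1.46 over all regions called in the 5 WENR libraries. The share of members in the stronger part of a list, above its median, ran from 5.26% in WT replicate 1 to 20.5% in AHR KO replicate 3. Across the 4678 members the ranks of any pair of WENR libraries had a Spearman rho of 0.619 to 0.853, a description over regions that share these libraries.

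**Figure D1:**
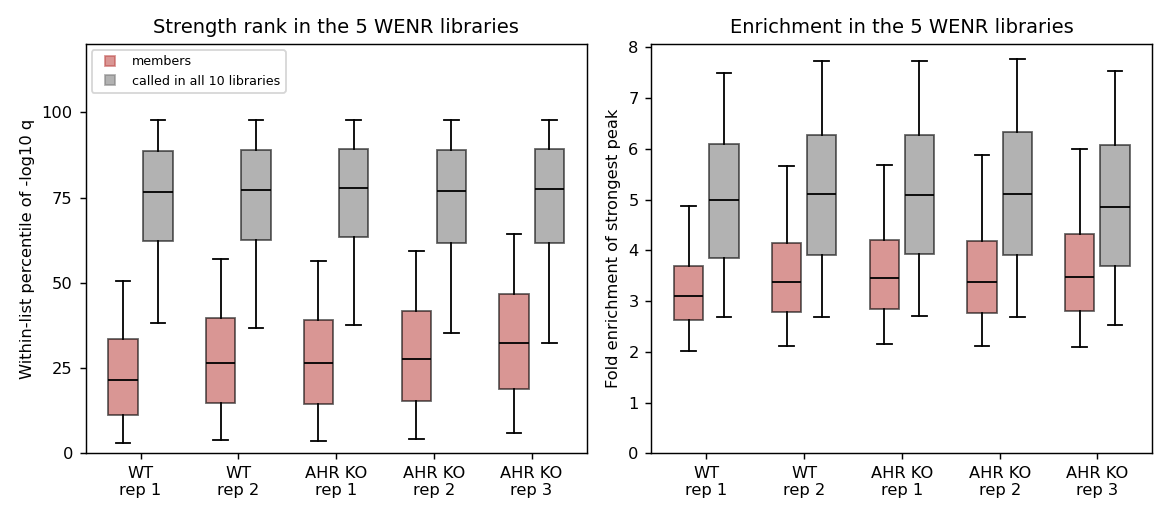
Strength of the 4678 members (red) and of the 28205 regions called in all 10 libraries (grey) in each WENR library, as the percentile of −log10 q within the list (left) and as fold enrichment (right). Boxes span the quartiles, lines inside them are medians and whiskers reach the 5th and 95th percentiles. The members' medians lie between 21.6 and 32.4 on the left and between 3.10 and 3.47 on the right, below the grey boxes in every library.

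Regions just outside the rule were weak as well. The 3398 regions called in all 5 WENR libraries and 1 d4 ENR library had a median percentile over the WENR lists of 29.7, against 26.7 in the members. The 2401 regions called in 4 WENR libraries and no d4 ENR library had one of 16.0, and so were weaker than the members. Of the 3398, AHR KO d4 ENR replicate 2 was the only d4 ENR caller of 1987 (58.5%) and WT d4 ENR replicate 1 of 56 (1.65%). Peaks in those sole callers were near the limit of detection, with a median −log10 q of 1.45 to 2.70. The opposite pattern, a peak in all 5 d4 ENR libraries and no WENR library, was found in 272 regions.

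Which regions counted as members depended on the length of the lists. When every list was shortened to the 33433 most significant peaks, the length of the shortest, 1422 regions had the pattern, and 222 of them were among the 4678 (4.75% of the members and 15.6% of the 1422). When the peaks of all libraries were rescored at 30354729 fragments, an alternative chosen after seeing the data that levels depth but not enrichment, 2507 of the members (53.6%) were still called in all 5 WENR libraries. Within each genotype alone, 10971 regions were called in both WT WENR and no WT d4 ENR library and 8129 in all AHR KO WENR and no AHR KO d4 ENR library. The members are the regions shared by both sets, 42.6% of the first and 57.5% of the second.

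Members were narrower than the regions open throughout. Their width had a median of 784 bp with quartiles of 595 and 1104 bp and a range of 277 to 6667 bp, against a median of 1393 bp for the regions called in all 10 libraries, where peaks of more libraries are joined. The median was 873 bp over all consensus regions, 824 bp with 1 d4 ENR caller and 600 bp in the regions called in 4 WENR and no d4 ENR library, so a small width was not particular to the members. They covered 4.44 Mb. In the 5 WENR libraries 98.9 to 99.5% of the members held a single peak, which covered a median of 70.2 to 90.2% of the region. The 594 members wider than 1500 bp were the weakest by rank, with a median percentile of 16.3 and a fold enrichment of 2.87. Members of 800 to 1100 bp had the highest medians, 31.8 and 3.64.

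By position, the members lay away from promoters. Introns held 50.7% of their midpoints, intergenic sequence 34.8%, promoters, taken from 1 kb before to 100 bp after an annotated start, 7.80% and exons 6.69%. Introns and intergenic sequence together made up 85.5% (95% Wilson interval 84.5 to 86.5%), against 77.1% of all other consensus regions and 60.5% of the regions called in all 10 libraries. Regions are not replicates, so these intervals cover counting error only and no test was made. The regions with a peak in 1 d4 ENR library had nearly the same share, 85.6%. Members were scattered: 10.5% had another member within 10 kb, and the median distance to the nearest was 84.4 kb. A region called in all 10 libraries lay within 10 kb of 28.9% of the members and of 38.1% of the regions called in all 5 WENR and 1 to 4 d4 ENR libraries.

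Of the 12 strings searched, AP-1 differed between the members and all regions by the most percentage points. An AP-1 string lay in the central 300 bp of 1268 members, 27.1% (25.9 to 28.4%), against 14.9% of all consensus regions and 11.6% of the regions called in all 10 libraries. In the 272 regions with the opposite pattern the share was 5.88% (3.65 to 9.34%). The share was 19.9% with a peak in 1 d4 ENR library, 16.6 to 17.4% with 2, 3 or 4, and 11.6% with all 5. Members and regions with 1 d4 ENR caller were close in median strength and in position. Their intervals (25.9 to 28.4% and 18.6 to 21.2%) cover counting error only, and the difference was not tested.

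The stronger a member was in WENR, the more often it held an AP-1 string. From the weakest to the strongest of 4 equal classes of members the share was 12.9, 21, 31.1 and 43.4%. Among the 222 members that also had the pattern at equal list length it was 48.2% (41.7 to 54.7%). Within bins of strength the members also had the higher share, which was not tested. For intronic and intergenic regions between the 20th and 40th percentile, the share was 29.6% (27.5 to 31.8%) in members, 12.9% (12.1 to 13.8%) with 1 to 4 d4 ENR callers and 7.74% (6.38 to 9.36%) with 5. Above the 60th percentile it was 55.4% (46.5 to 63.9%) of 121 members, 34.9% and 18.7%. These classes were not matched in width: between the 20th and 40th percentile the median widths were 720, 864 and 1171 bp. Among all members the share was lower in wide regions, 36.6% up to 600 bp and 6.90% above 1500 bp.

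**Figure D2:**
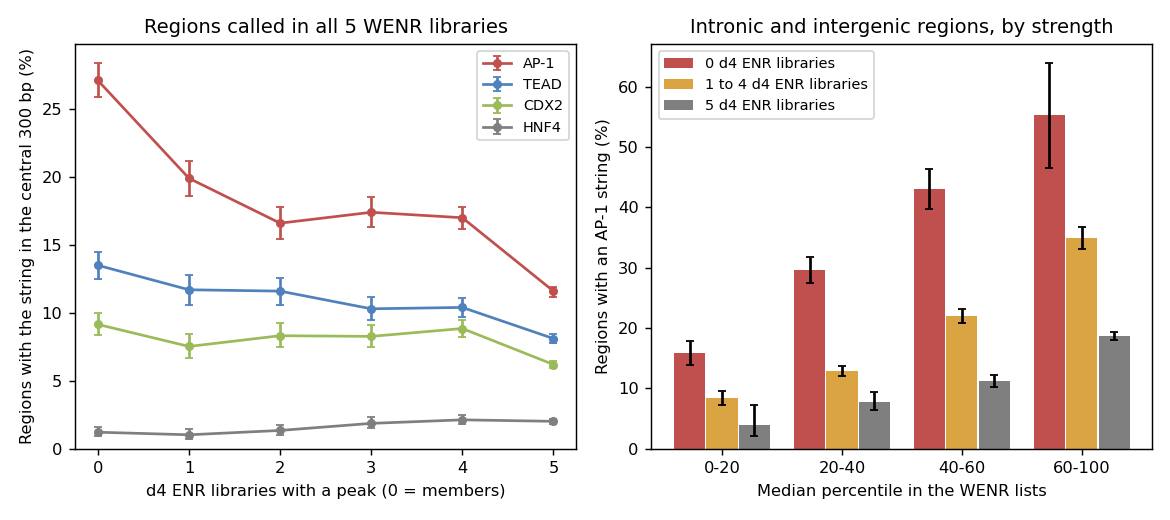
Left, share of the regions called in all 5 WENR libraries whose central 300 bp holds an AP-1, TEAD, CDX2 or HNF4 string, by the number of d4 ENR libraries with a peak, with 95% Wilson intervals. Right, the AP-1 share of intronic and intergenic regions by strength in WENR. The members (0 d4 ENR libraries) have the highest AP-1 share, 27.1%, and lead in all 4 bins of strength.

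AP-1 strings were centred in the members. Their density was 1.23 and 1.18 per kb in the 50 bp on either side of the centre and 0.286 and 0.231 per kb at 450 to 500 bp from it. In regions called in all 10 libraries the density was 0.457 and 0.454 per kb near the centre and 0.269 and 0.234 at 450 to 500 bp. With 1 to 4 d4 ENR callers besides all 5 WENR libraries, it was 0.765 and 0.788 near the centre and 0.252 and 0.288 at that distance. A higher density at the centre was thus not particular to the members, though it was highest in them. Narrow members were the richest: those of up to 600 bp held 1.16 AP-1 strings per kb of their whole length and those wider than 1500 bp held 0.391, against 0.699 and 0.317 in other regions of these widths called in all 5 WENR libraries. The widest members therefore differed little from other regions in this respect.

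TEAD strings were also more frequent in the members, by less. They lay in 631 members, 13.5% (12.5 to 14.5%), against 9.88% of all regions, 8.11% of those called in all 10 libraries and 6.62% (4.23 to 10.2%) of those with the opposite pattern. The share was 11.7% with 1 d4 ENR caller and 11.6% with 2. In the weakest of the 4 classes of members it was 10.1%. TEAD and AP-1 strings were found together in 177 members (3.78%), against 1.65% of all regions and 1.08% of those called in all 10 libraries. Of the members with an AP-1 string 14.0% held a TEAD string, and of those without one 13.3%. Over all regions these shares were 11.0 and 9.67%.

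**Figure D3:**
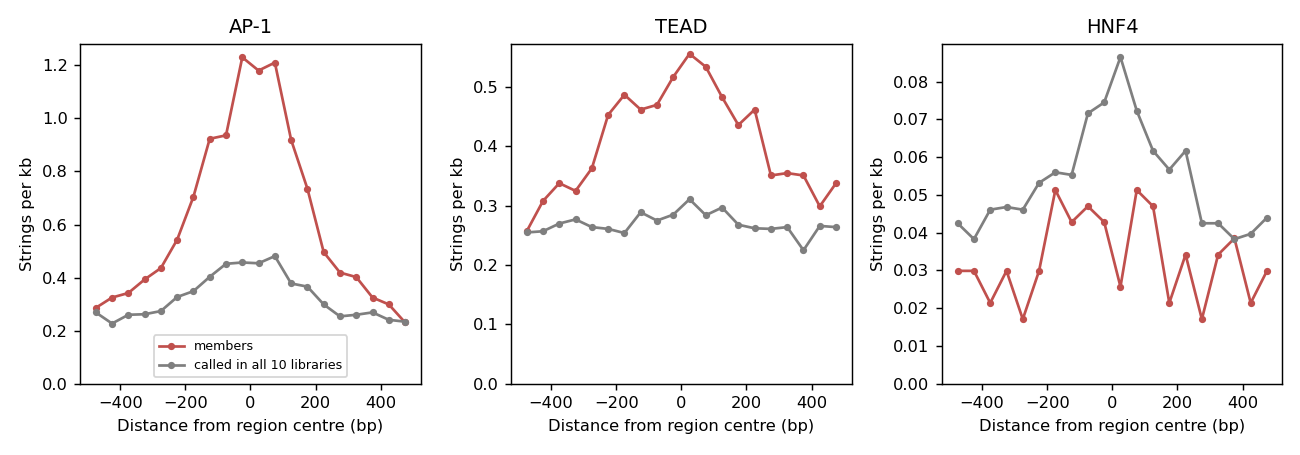
Density of AP-1, TEAD and HNF4 strings in steps of 50 bp by distance from the centre, in strings per kb, for the members (red) and the regions called in all 10 libraries (grey). AP-1 strings reach 1.23 per kb at the centre of the members against 0.457 in the other regions. In both they are denser near the centre than far from it. HNF4 strings (on a smaller scale) are sparser in the members.

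The strings of other factors differed by fewer percentage points or in the other direction. HNF4 strings (CAAAGTCCA or CAAAGTTCA) lay in 57 members, 1.22% (0.942 to 1.58%), against 2.15% of all regions and 4.41% (2.54 to 7.55%) of those with the opposite pattern. Among intronic and intergenic regions the shares were 1.30% against 2.43%. With 1 d4 ENR caller the HNF4 share was 1.03% (0.742 to 1.43%) and with 2 it was 1.35%, so a low share was not particular to the members. CDX2 strings (GCAATAAA or GTAATAAA or GCCATAAA or GTCATAAA) lay in 9.15% against 7.82%, but the difference was small among intronic and intergenic regions, 9.55% against 9.11%. TCF/LEF strings (ATCAAAG, which shares CAAAG with the HNF4 strings) lay in 6.01% (5.36 to 6.72%) against 4.75%. RUNX strings (TGTGGTT) lay in 8.34% against 6.94%, and in 7.98% of the regions with 1 d4 ENR caller.

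Strings typical of GC-rich promoters were fewer. ETS strings (CCGGAAGT) lay in 0.235% of members against 1.02% of all regions, a larger ratio than that of AP-1, and in 0.200% against 0.429% among intronic and intergenic regions. KLF/SP strings (GGGCGGGG or GGGTGTGG) lay in 7.27% against 9.97%, and in 7.80% of the regions with 1 d4 ENR caller. AHR:ARNT strings (TNGCGTG), the core of the site bound by AHR with its partner, lay in 2.76% (2.33 to 3.27%) against 3.72%, and in 2.55% against 2.94% among intronic and intergenic regions. The shares of strings for GATA factors, searched as AGATAAG, for NF1, searched as TTGGCA, and for FOX factors, searched as TGTTTAC, had intervals that held the share of all regions. The central 300 bp of the members had a median GC content of 45.7%, against 47.7% for all regions and 51.3% for those called in all 10 libraries.

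The 10 strongest members all lay in introns or intergenic sequence, 9884 bp or more from the nearest protein-coding start. The first was in an intron of *Cdh18*, a cadherin, 184167 bp from its start, at percentiles of 74.5 and 80.2 in WT and 79.5, 86.5 and 90.5 in AHR KO, and held 2 AP-1 strings. The second, 15502 bp from the start of *Ccdc80*, a secreted matrix protein, lay at 66.9 and 74.4 in WT and 80.0, 86.3 and 84.7 in AHR KO. Both ranked high in all 5 lists and lay lower in each WT library than in at least 2 of the 3 AHR KO libraries. The member 46523 bp from *Lrrc66*, whose sequence is given above, lay at 79.5 and 81.7 in WT and 73.1, 76.0 and 82.7 in AHR KO, so the genotypes overlapped.

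The other members among the 10 strongest had median percentiles of 73.9 to 77.2. They lay nearest *Irx3*, a homeobox factor, *Smyd3*, *D16Ertd472e*, *Exosc7*, a subunit of the RNA exosome, *Gfra1* (in an intron of *Atrnl1*), *Plce1*, a phospholipase C, and *Atxn10*. An AP-1 string lay in the central 300 bp of 6 of the 10 and a TEAD string in 1.

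Promoters made up 365 members, 263 of them of protein-coding genes, with a median percentile of 23.5. They were poor in CpG: the ratio of observed to expected CpG had a median of 0.345, against 0.667 in the 8814 promoters called in all 10 libraries. The strongest was at *Ankrd55*, at percentiles of 60.9 and 64.4 in WT and 65.8, 63.4 and 71.1 in AHR KO. The promoter of *Kcnab1*, a potassium channel subunit, lay at 46.2 and 41.6 in WT and 63.1, 65.9 and 66.5 in AHR KO, without overlap between the genotypes. That of *Slpi*, a secreted protease inhibitor of epithelia, lay at 54.5 and 64.1 in WT and 52.4, 59.4 and 62.2 in AHR KO. The others of the 10 strongest were the promoters of *Stum*, *Sh2d1b1*, *Plekhh2*, *Ecm1*, which encodes a matrix protein, *Piezo2*, a mechanosensitive channel, *Htra1*, a serine protease, and *Ddr1*, a collagen receptor, with medians of 54.9 to 61.7.

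Members lay in or within 5 kb of 2536 of the 17265 protein-coding genes with any region (14.7%), and 2014 of these held 1. Long genes had more: the share with a member was 5.76% among the shortest 3453 genes and 33.2% among the longest 3453. Lists are therefore also given by the share of their regions that were members, 4.85% over all genes. That share rose with gene length too, from 3.28% in the shortest 3453 genes to 6.01% in the longest 3453. It therefore does not correct the lists for length. *Alpk1*, a kinase that senses bacterial sugars, held 6 members among 14 regions. *Ctnna1*, the α-catenin that ties cadherins to actin, held 7 of 25. *Ptprg* held 7 of 40, *Psd3* 7 of 35, *Ppp3ca*, a catalytic subunit of calcineurin, 6 of 19, and *Pde4d* 6 of 81. *Abcb1a*, a drug efflux pump, held 5 of 24 and *Adgrl2* 5 of 13. *Fgfr2* and *Gm20388* had the most, 9 each, in gene models of 2961 and 4435 kb with 207 and 347 regions, and so a low share, 4.35 and 2.59%.

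Of 12 lists of genes by function, the one with the highest share of genes with a member was that of adhesion to the matrix. Integrins, laminins, collagens and their actin linkers had at least 1 member in 14 of 28 genes, and 8.12% of their 271 regions were members, with a median gene length of 82.1 kb against 22.2 kb over all genes. By share of regions the list stood beside the TGF-β and BMP list (7.98%) and the fetal-like list (7.89%), and the order of the lists was not tested. At equal list length, where the pattern chose mostly other regions, 4 of the 28 genes held such a region. The share of all genes was then 4.82%, and YAP and TEAD targets and p38 and MAP kinase genes had 3 each. *Itga6*, the integrin α6 that binds laminin, held 5 among 17 regions. *Lamc1*, a laminin chain, held 3 among 10, *Actn1*, an α-actinin, 2 among 15 and *Flna*, a filamin, 2 among 9.

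The members in *Itga6* were mostly broad and weak. The one 44.6 kb from the gene's start was 893 bp wide, at percentiles of 31.0 and 42.6 in WT and 46.1, 49.1 and 37.1 in AHR KO. The other 4 followed each other between 78.5 and 98.9 kb, were 2336 to 4407 bp wide and had median percentiles of 2.95 to 14.2. Fold enrichments in the last were 1.89 and 1.79 in WT and 2.0, 2.03 and 1.76 in AHR KO, so it stood little above its local background in any library and the genotypes overlapped.

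**Figure D4:**
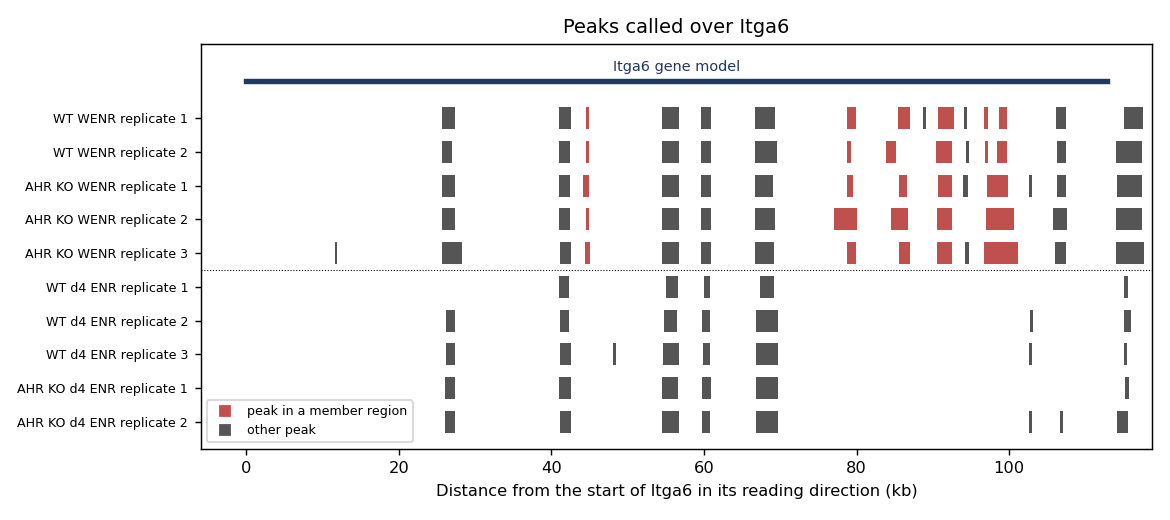
Peaks called over *Itga6* in the 10 libraries, by distance from the start of the gene model in its reading direction in kb. Peaks in member regions are red and others grey. The members are 5 groups of red peaks found in each of the 5 WENR libraries and absent from all 5 d4 ENR libraries, and 4 of them stand together between 78.5 and 98.9 kb.

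Many list members were broad and weak. The 84 members at genes of the 12 lists had a median width of 1046 bp and a median percentile of 19.9, and 31.0% of them lay below the 10th percentile, against 13.1% of all members. The lists varied: 1 of 15 members at YAP and TEAD targets and none of 4 at EGF genes lay below the 10th percentile, and the 2 at replication genes had a median percentile of 28.2. Of the 242 list genes with a region, 56 (23.1%) had a member, against 14.7% of all genes. The list genes were not matched to all genes in length.

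Targets of YAP and TEAD had a member in 9 of 27 genes, and 6.73% of their 223 regions were members. *Asap1*, a regulator of focal adhesions, held 3. *Arhgef17*, an activator of RhoA, *Nt5e*, which makes adenosine at the cell surface, and *Ptpn14*, an inhibitor of YAP, held 2 each. *Tead1* itself held 2 in introns, at median percentiles of 53.2 and 15. Of the fetal-like and regeneration markers 3 of 16 (18.8%) had a member, near the 14.7% of all genes, and 7.89% of their 76 regions were members. Without AHR KO d4 ENR replicate 2 the count was 5. *Anxa3* held 3 members, *Cd44* 2 and *Il33*, an alarmin, 1. The *Anxa3* members were weak, with median percentiles of 1.23 to 6.60, and the stronger of those in *Cd44* stood at 46.3 and held an AP-1 string.

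The TGF-β and BMP pathway had a member in 8 of 26 genes (7.98% of 163 regions). *Smurf1*, a ubiquitin ligase that removes receptors of the pathway, held 4 among 11. The receptors *Tgfbr2* and *Acvr1* held 2 each, and *Acvr2a*, another receptor, 1. Medium WENR contains an inhibitor of a receptor of this pathway, and its part in these regions was not tested. Of the p38 and MAP kinase genes 4 of 22 had a member (4.00% of 125 regions, below the 4.85% of all genes), and 7 did without WT WENR replicate 1. There were 2 at *Mapkapk2*, a kinase that p38 activates, and 1 each at *Dusp5*, a phosphatase of MAP kinases, and *Map3k1*. EGF receptors and ligands had one in 4 of 14 genes, *Egfr*, *Erbb4*, *Lrig1*, which restrains EGF receptors, and *Tgfa*, a ligand, with 1 each, and 3.92% of their 102 regions were members, also below the 4.85%.

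Wnt targets and stem cell genes had a member in 6 of 21 genes, but only 3.93% of their 178 regions were members, below the 4.85% of all genes. The count was 10 without AHR KO d4 ENR replicate 2 and 1 at equal list length. *Znrf3*, which clears Wnt receptors from the cell surface, held 2. *Axin2* and *Rnf43*, feedback inhibitors of Wnt, held 1 each at percentiles of 1.87 and 1.04, and *Myc* held 1 at 47.3.

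Some groups had few members, as did genes of like length in general. None of the 18 absorptive colonocyte genes had one among their 88 regions, and 1 of 18 secretory genes did, *Neurod1*, a factor of enteroendocrine cells. None of the 12 genes for AP-1 factors (*Fos*, *Fosb*, *Fosl1*, *Fosl2*, *Jun*, *Junb*, *Jund*, *Batf*, *Batf2*, *Batf3*, *Atf3* and *Maff*) had one among 39 regions. Replication and cell cycle genes had one in 2 of 22, *Cdk6* and *E2f1*. These were short genes, with medians of 9.75 to 14.6 kb. Among the 3453 genes next in length after the shortest 3453, a range that holds these medians, 6.75% had a member. Of the regions of those genes 3.00% were members. Replication genes had a higher share of genes with a member (9.09%) and secretory genes a lower one (5.56%). Lists of 12 and 18 genes are too small to tell the lack of a member from a share of 6.75%. The counts are also small enough to move with 1 library. Absorptive genes had 2 without AHR KO d4 ENR replicate 2 and 1 at equal list length, and AP-1 genes had 1 without WT d4 ENR replicate 3. Secretory genes had 3 without AHR KO WENR replicate 3 and 2 without AHR KO WENR replicate 1 or 2, and replication genes had 4 without AHR KO WENR replicate 2. Intestinal transcription factors had a member in 5 of 19 (5.49% of 164 regions), among them 3 at *Hnf4a* and 1 each at *Elf3* and *Gata6*.

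Some members lay at genes that mark cell types. Of the mesenchymal markers with a region 3 of 5 had a member, and of the endothelial 2 of 4. Of the epithelial it was 2 of 8 (*Cdh1* and *Cldn3*) and of the immune 0 of 3, against 14.7% of all genes. Members made up 14.3% of the mesenchymal, 14.3% of the endothelial and 6.98% of the epithelial regions, against 4.85% over all genes. The lists were small and not matched in gene length. The promoters of *Pdgfrb* and *Acta2*, markers of mesenchymal cells, and of *Kdr*, a marker of endothelium, were members, at median percentiles of 44.7, 49.2 and 18.2, and members also lay at *Cdh5* and *Myh11*. Fold enrichment at the *Acta2* promoter was 5.17 and 5.29 in WT and 4.54, 4.80 and 5.64 in AHR KO. Of the 6 mesenchymal markers, *Col1a1* and *Pdgfra* had a promoter peak in all 10 libraries and *Myh11* in 5 WENR and 1 d4 ENR library, while *Col1a2* was without one throughout. The summed, scaled promoter coverage of the mesenchymal list was 6.48 to 8.22 in WENR and 0.973 to 2.26 in d4 ENR. The endothelial list had 0.408 to 0.516 in WENR and 0 in d4 ENR, all from *Kdr*, with *Pecam1*, *Cdh5* and *Tek* at 0. The part of mesenchymal or endothelial cells in the members was not tested.

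The rule did not separate the genotypes, so AHR KO and WT were compared over the 5 WENR libraries. A peak was required in each of them, for the members and for all regions tested. A weak region that fell under the caller's threshold in 1 genotype is therefore missing, and large differences at weak regions may be missed. For each of the 52254 regions called in all 5, the log2 of the scaled mean peak coverage, centred on the median of each library, was tested with limma, with Benjamini-Hochberg adjustment over all regions. Of the members 17 of 4678 (0.363%) passed an adjusted p of 0.05, near the share among all regions tested, 0.446% (233 regions). Coverage was higher in AHR KO in 11 members, where the share of all regions was 0.159%, and higher in WT in 6, where it was 0.287%. Without median centring the balance over all regions turned, from 83 higher in AHR KO and 150 higher in WT to 63 and 52, and that of the members was 11 and 3. At an unadjusted p under 0.05 there were 785 members (16.8%), against 14.4% of all regions. The AHR KO minus WT difference had a median of 0.05 on the log2 scale in the members and −0.01 over all regions, with a median standard error of 0.16 in the members, and without centring the medians were 0.13 and 0.07. In 970 members (20.7%) all 3 AHR KO libraries lay above both WT libraries, and in 554 (11.8%) both WT libraries lay above all AHR KO libraries, where the shares over all regions were 14.3% and 16.8%. AHR KO replicate 3, the library with the most fragments, had the highest coverage at the members, and without it their median difference was 0.03. AHR KO replicate 1, with the fewest fragments of the WENR libraries, had a median scaled coverage of 0.575, between the 0.521 and 0.578 of WT. The part of depth was not tested.

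These calls rested on few libraries. Without WT replicate 1 or WT replicate 2 no member passed (0 of 4678 by limma, with 366 and 630 at an unadjusted p under 0.05, 7.82 and 13.5% against 7.01 and 11.1% of all regions), and without AHR KO replicate 2 there was 1. Without AHR KO replicate 1 there were 198 (4.23%, against 3.40% of all regions), and without AHR KO replicate 3 there were 69 (1.47% against 1.54%). With fold enrichment in place of coverage none of the 52254 regions passed by limma, members included, while 788 members (16.8%) and 8.87% of all regions had an unadjusted p under 0.05.

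Among the 17, the largest difference lay in an intron of *Otop1*, a proton channel, 12830 bp from its start. Its scaled coverage was 0.544 and 0.673 in WT and 1.11, 1.69 and 2.12 in AHR KO, with no overlap. The difference was 1.31 on the log2 scale (SE 0.22, limma adjusted p = 0.0253). A member in an intron of *Adgrv1*, an adhesion receptor, had 1.51 and 1.65 in WT and 3.5, 3.51 and 4.99 in AHR KO (difference 1.24, SE 0.14, limma adjusted p = 0.00267). The next were in introns of *Sept9*, a septin, and *Efna5*, an ephrin, and near *Snx16*, a sorting nexin, with differences of 1.08, 1.0 and 1.0 and limma adjusted p of 0.0213, 0.0311 and 0.0197.

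In the other direction, the largest difference lay 99549 bp from the start of *Sntg2*. Its scaled coverage was 0.894 and 1.31 in WT and 0.628, 0.469 and 0.374 in AHR KO, a difference of −1.26 (SE 0.22, limma adjusted p = 0.0312). The member 38627 bp from *Ndnf* had 0.845 and 0.715 in WT and 0.420, 0.406 and 0.399 in AHR KO, a difference of −1.01 (SE 0.16, limma adjusted p = 0.0197), and its AHR KO values lay close together. Members near *Fam49a* and *Vip*, a neuropeptide gene, and in an intron of *Pde4b* differed by −1.04, −0.92 and −0.90. The members near *Sntg2* and *Fam49a* start at 30472228 and 12477298 on chromosome 12. The targeted gene *Ahr* lies on the same chromosome, from 35497974 to 35535038. The other members named in this comparison lie on other chromosomes. The part of sequence linked to the targeted allele in these differences was not tested. None of these 10 regions kept an adjusted p under 0.05 in more than 6 of 10 alternative fits. The direction was the same in all of the fits, which the selection of large differences favours, since the fits share the same libraries.

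**Figure D5:**
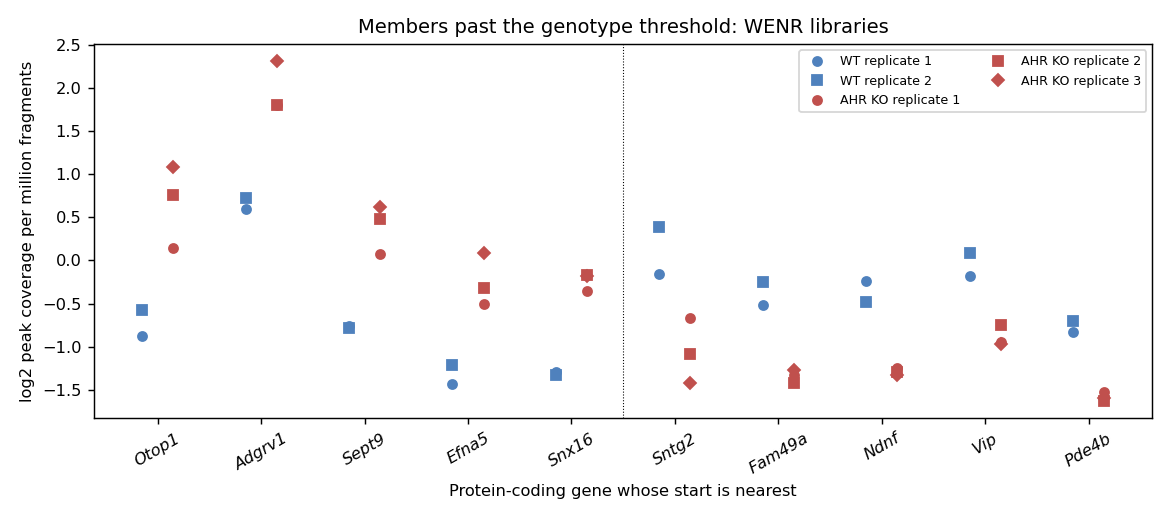
Peak coverage scaled to 1000000 fragments, on a log2 scale, in the 5 WENR libraries for the 10 members named by the genotype comparison, each labelled by the nearest protein-coding gene. WT libraries are blue and AHR KO red, with a symbol for each replicate. On the left of the dotted line AHR KO is higher and on the right WT is higher, and the genotypes do not overlap in any of the 10, which their selection favours.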

How the data were processed

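Broad peaks of Omni-ATAC-seq were analysed in 10 libraries, grouped by the genotype and medium of their labels. The authors processed the reads with the nf-core/atacseq pipeline (adapter trimming, BWA, GRCm38) and ran MACS 2.2.7.1 on 1 library at a time (paired-end, no control, broad cut-off 0.1). The deposited lists give the pileup, a coverage signal not scaled for library size, the −log10 of the p-value and q-value, and the fold enrichment over local background.

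Members and gene lists were chosen with earlier results of these data known. Regions were annotated with GENCODE M21 by their midpoint. Strings were searched on both strands of GRCm38. Named members and genes were those of highest percentile, those with the most members overall or within a list, and those with the largest genotype differences past the threshold. Some genes that this rule covers are not reported here. Python 3.11.15, numpy 2.4.6, pandas 2.3.3, scipy 1.17.1, R 4.3.3 and limma 3.58.1 (trend, robust) were used, and plots were drawn with matplotlib 3.10.9. Read counts per region, which the study's methods tested with a count model, were not used here, so coverage of the called peaks stands in. Coverage is known only where a peak was called, so the media were not tested. Per the study's methods, crypts for organoids came from several mice of each genotype as biological replicates, but which mouse gave which library was not stated, so p-values measure the spread between these libraries. In a simulation of the genotype comparison over 52254 regions, 57 of 100 planted differences of 1 on the log2 scale and 93 of 100 of 2 were recovered. Its noise was normal and independent, with the spreads shuffled across regions. The changed regions were drawn from all 52254 and not from the weaker members. It therefore does not give the recovery to be expected among the members.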

Additional observations from a re-analysis of the deposited data

How the results depend on the processing

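At equal list length 1422 regions had the pattern, and at a −log10 q of at least 5 there were 7664. Where peaks had to cover at least 50% of a region there were 7311. Without 1 library the number was 4734 to 6665, highest without AHR KO d4 ENR replicate 2. On autosomes only it was 4545, and with rescored peaks 5145. The first 3 of these sets held 4.75, 44.5 and 63.4% of the members, which made up 15.6, 27.2 and 40.6% of them. Shares and gene counts given below at equal list length or at the stricter q therefore describe mostly other regions. The AP-1 share was 20.1, 36.1 and 49.7% in the central 200 bp, the central 500 bp and the whole region, 36.6% at equal list length, 25% at a −log10 q of at least 5, 28.8% in intronic and intergenic regions and 24.8 to 27.5% without 1 library. The TEAD share was 9.30, 20.9 and 32.8% in those windows, 12% at a −log10 q of at least 5 and 12.9 to 13.7% without 1 library. Both stayed above the share of all regions in each of these alternatives. The intronic and intergenic share was 73.9% with promoters of 3 kb on each side, 88.3% at equal list length, 83.2% at a −log10 q of at least 5 and 85.1 to 86.0% without 1 library. The list genes with a member were 85 with 20 kb on each side, 20 at equal list length and 56 to 74 without 1 library.

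The members past the genotype threshold were 6 at a −log10 q of at least 5, 0 with fold enrichment or without trend and robust fitting, 14 without median centring, which gives a median difference of 0.07 over all regions in place of −0.01, and 0 to 198 without 1 library. Leaving out a WT library leaves WT with 1, which is then assumed to vary like the AHR KO libraries. With the replicate number as a block, which leaves 1 residual degree of freedom, 299 passed (6.39%, against 5.66% of all regions). Deviations of same-numbered WENR libraries had a Pearson r of 0.34 and 0.04, and with only 2 such pairs they share only a number. The cause of these changes was not tested. Depth limits the statements on absence: a region without a peak in d4 ENR may have passed the threshold in a deeper or more enriched library.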
